A study of Mus musculus with 15 samples.

Results

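In cultured mouse adipocytes, 17 genes stood above their level at 37°C after 1 day at 31°C and below it after 12 days, or the reverse. Of these, 8 were higher at day 1 and lower at day 12, namely Ucp2, H2-Q4, Hmox1, Slc22a4, Pm20d2, Vat1l, Alpl and Atp5sl. The other 9, Pop1, Serpina3h, Kntc1, Sfrp2, Arhgap18, Ch25h, Itih5, Ncapg2 and Mogat2, were lower at day 1 and higher at day 12. They were selected on the deposited regularized log2 values, in which the mean of each group was set against that of day 0. A gene was taken if its mean raw count over the 15 libraries was at least 50 and its differences at day 1 and day 12 had opposite signs and were each at least 0.5 in size. The 17 were found among 12650 genes that met the count minimum, of 18804 genes in the table, or 0.0632% for the first direction and 0.0711% for the second. Since the differences chose the genes, their fold changes are given as a description with standard errors and without a test.

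The question was how the transcriptome of white fat cells changes in the cool, as in fat near the skin. Mesenchymal stem cells, progenitors that can form fat, cartilage or bone cells, were taken from the ears of C57BL/6J mice with no engineered allele and were differentiated with methylisobutylxanthine, dexamethasone and insulin. The labels give troglitazone as the PPARγ agonist in that cocktail, and the study's methods name troglitazone in one place and rosiglitazone in another. RNA of all 3 groups was taken 16 days after the start of differentiation, from 5 libraries a group. The day 0 cells stayed at 37°C throughout, the day 1 cells moved to 31°C at day 15, and the day 12 cells moved at day 4, when insulin and the agonist were withdrawn. Day 12 is therefore not a later sample of the day 1 cells, and a longer stay at 31°C cannot be told apart from an earlier age at the move. Whether the 5 libraries of each group stem from different mice or dishes is given by neither the labels nor the methods, so each SD, SE and p-value below measures only the spread between these libraries. Both comparisons share the same 5 day 0 libraries.

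Total counts lay between 64648178 and 133270973 per library. The labelled cell type was checked on marker genes: 10 of 10 adipocyte markers were measured, and their summed level was 4574 to 5262 CPM (reads of a gene per 1e6 counts of the library, the total scaled by TMM) at day 0, 5684 to 6351 at day 1 and 5049 to 5625 at day 12. Chondrocyte markers were also high, with a sum of 3671 to 4403 CPM at day 0, 3905 to 4062 at day 1 and 1128 to 1222 at day 12, most of it from Comp, a cartilage matrix protein. The mesothelial sum went from 2.06 to 2.25 CPM at day 0 and 1.79 to 2.15 at day 1 to 23.4 to 38.3 at day 12, nearly all from Msln. The keratinocyte sum of 47.3 to 54.5 CPM at day 0, 19.4 to 21.74 at day 1 and 56.6 to 64.8 at day 12 came from Trp63, while the defining keratins Krt5 and Krt14 stayed under 1 CPM in every library. The macrophage sum was 7.71 to 10.4, 10.9 to 14 and 7.4 to 8.30 CPM at days 0, 1 and 12. Stromal progenitor markers summed to 1149 to 1229, 1210 to 1277 and 964 to 995 CPM at these days. Schwann or neural markers summed to 58.4 to 62.6, 71.9 to 78.5 and 61.9 to 70.4 CPM. Of the 10 adipocyte markers, 4 at day 1 and 7 at day 12 were called by edgeR, as defined below with the shares over all genes. The part of these cell types in the differences below was not tested, and in bulk RNA fewer cells of a type cannot be told apart from less RNA per cell.

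The genes stand for several systems. Ucp2 is a carrier of the inner mitochondrial membrane, related to the thermogenic Ucp1 but found in many tissues, and Atp5sl, now named Dmac2, takes part in the assembly of respiratory complex I. Heme oxygenase 1, the product of Hmox1, opens the heme ring and is a classic target of NRF2, the transcription factor of the oxidative stress response. Major histocompatibility complex (MHC) class I molecules such as that of H2-Q4 display peptides on the cell surface. Among the genes of the other direction, Kntc1 and Ncapg2 act in mitosis, Pop1 in the processing of transfer and ribosomal RNA, and Sfrp2 outside the cell as a modulator of Wnt signals.

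The sequence upstream of 4 of these genes is shown. In each direction they are the pair with an entry in the RefSeq promoter table whose smaller difference from day 0, of the days 1 and 12, was largest. They are the 250 bases before the transcript start that RefSeq gives on GRCm38.p6, 5′ to 3′ on the coding strand, with motif matches in capitals. GENCODE, the source of the gene coordinates below, starts Ucp2 and Kntc1 further upstream, so the last bases of these windows, with most of the last match in Kntc1, lie inside the gene by that annotation.
Ucp2, chr7:100493108-100493357, plus strand: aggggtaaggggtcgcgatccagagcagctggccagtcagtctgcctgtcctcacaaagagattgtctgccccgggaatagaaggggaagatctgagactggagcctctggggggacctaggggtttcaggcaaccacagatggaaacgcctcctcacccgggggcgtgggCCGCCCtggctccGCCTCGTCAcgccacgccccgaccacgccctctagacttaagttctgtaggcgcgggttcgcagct
H2-Q4, chr17:35379367-35379616, plus strand: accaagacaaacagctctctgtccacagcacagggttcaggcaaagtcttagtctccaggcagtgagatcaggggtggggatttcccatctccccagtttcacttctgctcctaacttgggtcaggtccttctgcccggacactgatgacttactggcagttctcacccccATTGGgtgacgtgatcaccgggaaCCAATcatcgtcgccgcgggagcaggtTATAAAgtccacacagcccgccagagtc
Kntc1, chr5:123749476-123749725, plus strand: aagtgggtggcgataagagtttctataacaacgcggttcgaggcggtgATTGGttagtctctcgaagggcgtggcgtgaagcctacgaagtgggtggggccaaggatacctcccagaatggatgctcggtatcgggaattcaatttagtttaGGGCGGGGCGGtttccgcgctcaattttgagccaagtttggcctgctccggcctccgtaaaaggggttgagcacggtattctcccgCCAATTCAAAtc
Sfrp2, chr3:83766071-83766320, plus strand: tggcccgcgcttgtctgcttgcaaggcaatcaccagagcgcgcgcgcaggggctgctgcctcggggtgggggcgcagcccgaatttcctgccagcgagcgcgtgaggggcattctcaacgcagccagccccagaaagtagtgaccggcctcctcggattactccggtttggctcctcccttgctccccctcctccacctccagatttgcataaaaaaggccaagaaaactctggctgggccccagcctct
In Ucp2 the capitals mark a GC box (GGGCGG, here as its complement CCGCCC) and a match to the core of the antioxidant response element (TGACNNNGC, here as its complement). In H2-Q4 they mark the CCAAT box on both strands and a TATA box (TATAAA). In Kntc1 they mark a CCAAT box on the opposite strand, overlapping GC boxes, and a CCAAT box that overlaps TTCAAA, the complement of the TTTGAA element of cell cycle promoters. No searched motif lay in the Sfrp2 window.

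Over all 17 genes, 13 had an entry, with 15 promoters in all, against 32851 promoters in the table. Hmox1, Pop1, Serpina3h and Mogat2 were not in it. On either strand of the same 250 bases, the GC box was found in 7 of the 15 and in 32.7% of all promoters, and the CCAAT box in 3 and in 33.8%. TATAAA was found in 3 of the 15 (12.4% of all), TTTGAA in 3 (16.0%) and TGACNNNGC in 3, of Ucp2 and both promoters of Alpl (10.2%). The E-box CACGTG was found in 3 (6.02%), of Slc22a4 and both promoters of Atp5sl, whose windows overlap. The cAMP response element TGACGTCA was found in the 1 of Ch25h (1.55%). The median GC content was 58.8% against 52.4% for all promoters, and the median number of CpG dinucleotides per 100 bases was 6.4 against 2.4. The promoters of the table were not limited to genes that met the count minimum, so nothing is read from these shares and medians. These matches describe letters in a window and not bound sites.

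Ucp2 lies at chr7:100493337-100502020 (all gene coordinates are GRCm38) and shares 4.36% of its exon bases with Dnajb13 on the opposite strand. Its level was 21.4, 17.0, 19.1, 21.8 and 25.2 CPM in the 5 day 0 libraries, 35.3, 45.7, 38.4, 41.8 and 48.5 CPM at day 1, and 11, 9.84, 10.7, 11.3 and 9.73 CPM at day 12. All day 1 libraries stood above all day 0 libraries, and all day 12 libraries below both. The level was 2.01-fold that of day 0 at day 1 and 0.504-fold at day 12, close to mirror images on the log2 scale, with fold changes of 1.01 (SE 0.0827) and −0.99 (SE 0.0885). With libraries scaled by total counts only, the log2 fold changes were 1.03 and −0.80. Hmox1, at chr8:75093621-75100589, was the most abundant of the 17 per exon length, at the 99.2nd percentile of the genes at day 0. It had 597, 504, 565, 542 and 626 CPM at day 0, 1056, 1087, 1094, 1177 and 1157 CPM at day 1, and 352, 368, 347, 348 and 359 CPM at day 12. The day 12 libraries lay within a narrow band under every day 0 library. Fold changes on the log2 scale were 0.97 (SE 0.0429) and −0.68 (SE 0.0429).

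Atp5sl, at chr7:25619414-25625551, had 12.7, 11.6, 13.3, 13.9 and 13.2 CPM at day 0, 20.9, 21.4, 18.7, 18.2 and 19.2 CPM at day 1, and 8.32, 7.88, 8.46, 8.67 and 7.52 CPM at day 12. Its groups stood apart at both days, with log2 fold changes of 0.60 (SE 0.0563) and −0.66 (SE 0.0590).

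H2-Q4 had the widest swing of all 17. It lies at chr17:35379617-35385290, shares 19.1% of its exon bases with Gm11131 on the opposite strand and resembles other class I genes in sequence, so its counts are uncertain. The libraries had 130.2, 124, 122, 134 and 122 CPM at day 0, 215, 199, 199.95, 199 and 209 CPM at day 1, and 16.1, 16.7, 18.9, 22.2 and 18.2 CPM at day 12. Every day 12 library was thus far below every other library. The mean of 205 ± 7.37 CPM (SD, n = 5) at day 1 was 11.1 times that of 18.4 ± 2.39 at day 12. Against day 0, the log2 fold changes came to 0.70 (SE 0.0505) and −2.78 (SE 0.0567).

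Slc22a4, which encodes a transporter of ergothioneine, lies at chr11:53983123-54028090. It had 11.8, 10.0, 10.7, 12.3 and 11.4 CPM at day 0, 14.9, 18.6, 16.5, 18.2 and 19.1 CPM at day 1, and 6.70, 6.42, 6.4, 6.56 and 6.80 CPM at day 12. The day 12 values were nearly equal and lay under all others. Pm20d2, a peptidase that splits certain dipeptides, lies at chr4:33174230-33189737. It had 31.0, 33.3, 30.1, 30.7 and 27.4 CPM at day 0, 50.3, 42.2, 48.1, 47.3 and 43.3 CPM at day 1, and 19.9, 17.2, 17.4, 16.6 and 19.2 CPM at day 12. The 3 groups did not overlap. For Slc22a4 the log2 fold changes came to 0.64 (SE 0.0637) and −0.77 (SE 0.0673), and for Pm20d2 to 0.60 (SE 0.0546) and −0.75 (SE 0.0567).

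Vat1l, a relative of the vesicle protein gene Vat1, lies at chr8:114205612-114374071 and varied most between libraries of a group, with a within-group SD of 0.245 in log2 CPM. It had 2.80, 3.39, 4.35, 2.55 and 3.02 CPM at day 0, 5.63, 4.43, 6.2, 5.12 and 5.53 CPM at day 1, and 1.04, 1.15, 0.935, 0.855 and 1.33 CPM at day 12. Its highest day 0 library and lowest day 1 library were almost level, whereas day 12 was clearly apart. Alpl, the tissue-nonspecific alkaline phosphatase needed for mineralization, lies at chr4:137741733-137796384. It had 12.7, 12.0, 10.7, 13.8 and 13.6 CPM at day 0, 17.2, 19.4, 17.9, 21.4 and 20.7 CPM at day 1, and 8.91, 9.17, 7.61, 7.31 and 7.94 CPM at day 12. Again no library of one group reached the range of another. The log2 fold changes were 0.74 (SE 0.127) and −1.59 (SE 0.145) for Vat1l and 0.62 (SE 0.0729) and −0.61 (SE 0.0763) for Alpl.

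**Figure D1:**
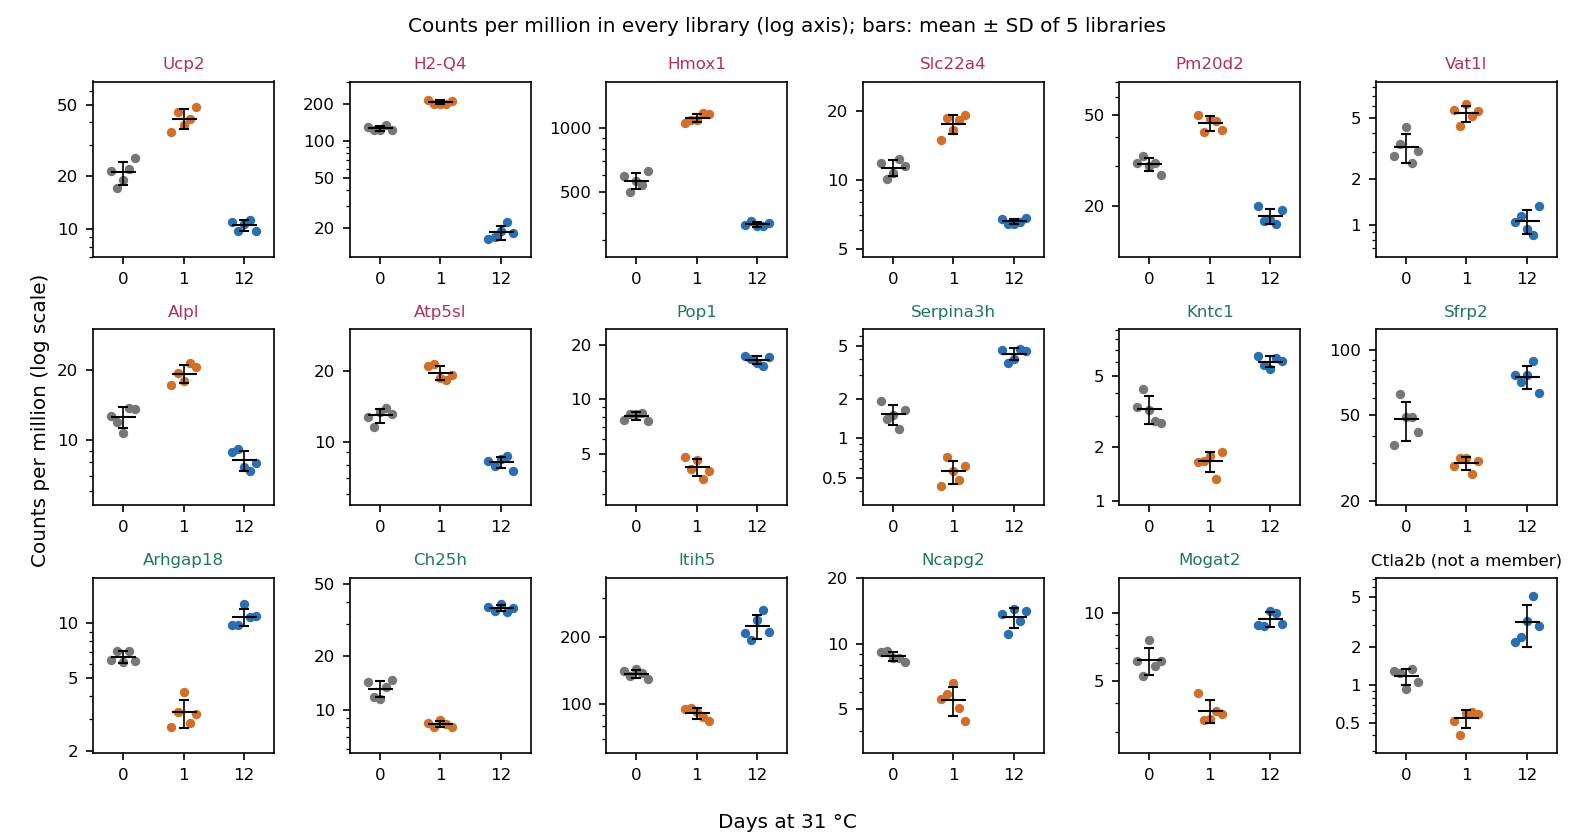
Each panel plots 1 gene, with CPM on a log axis against days at 31°C; points are the 5 libraries of a group, and bars the mean ± SD. Titles in red are the 8 genes higher at day 1 and lower at day 12, titles in green the 9 of the other direction, and Ctla2b, which the rule did not take, has a black title. In all 17 panels the groups are apart, by the least for Vat1l at day 1 (4.35 against 4.43 CPM) and Sfrp2 at day 12 (62.5 against 63.2 CPM).

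Pop1 encodes a protein shared by RNase P and RNase MRP, which cut transfer RNA and ribosomal RNA precursors, and lies at chr15:34495304-34530648. It had 7.69, 8.31, 8.33, 8.37 and 7.53 CPM at day 0, 4.76, 4.14, 4.64, 3.63 and 3.99 CPM at day 1, and 17.3, 16.6, 15.9, 15.3 and 17.0 CPM at day 12. The libraries kept close together within each group. The level was 0.526-fold that of day 0 at day 1 and 2.04-fold at day 12, with log2 fold changes of −0.92 (SE 0.0685) and 1.03 (SE 0.0629). Kntc1 encodes a subunit of the RZZ complex, which holds back anaphase at unattached kinetochores, and lies at chr5:123749716-123821593. It had 3.36, 4.21, 3.25, 2.82 and 2.73 CPM at day 0, 1.65, 1.68, 1.79, 1.33 and 1.88 CPM at day 1, and 6.49, 5.75, 5.45, 6.33 and 6.06 CPM at day 12. Day 1 was the lowest and day 12 the highest group, without overlap. Its log2 fold changes were −0.97 (SE 0.116) and 0.88 (SE 0.106).

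Ncapg2 encodes a subunit of condensin II, a complex that compacts chromosomes, and lies at chr12:116405402-116463731. It had 9.12, 9.26, 8.63, 8.62 and 8.22 CPM at day 0, 5.58, 5.87, 6.63, 5.09 and 4.41 CPM at day 1, and 13.7, 11, 14.3, 12.7 and 14.1 CPM at day 12. The groups were apart, with log2 fold changes of −0.67 (SE 0.0868) and 0.59 (SE 0.0821). Its deposited difference of 0.504 at day 12 was just over the limit and fell under it in 5 of the 15 fits that left out a library.

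Serpina3h, at chr12:104247905-104253669, is annotated as a transcribed pseudogene of the Serpina3 cluster of protease inhibitors, whose members resemble each other, so its counts are uncertain. It was the least counted of the 17, with a mean raw count of 192. It had 1.91, 1.4, 1.49, 1.18 and 1.65 CPM at day 0, 0.435, 0.722, 0.565, 0.488 and 0.617 CPM at day 1, and 4.64, 3.71, 4.02, 4.76 and 4.56 CPM at day 12. The groups were well separated, and day 12 was 7.67 times day 1. The log2 fold changes of −1.44 (SE 0.155) and 1.5 (SE 0.13) were again near mirror images. They were −1.41 and 1.69 with libraries scaled by total counts only, and the deposited differences were −0.70 and 1.01.

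Sfrp2 lies at chr3:83766321-83774316 and is uncertain because 16.1% of its exon bases are shared with Gm26771 on the opposite strand. It had 36.2, 62.5, 48.9, 49.2 and 42.0 CPM at day 0, 29.1, 31.8, 31.5, 26.8 and 30.8 CPM at day 1, and 76.8, 70.9, 76.6, 88.8 and 63.2 CPM at day 12. The day 0 libraries were widely spread, and the highest of them came within 1 CPM of the lowest at day 12. Itih5, a heavy chain of the inter-alpha-trypsin inhibitors, which bind hyaluronan outside the cell, lies at chr2:10153571-10256529. It had 142, 133, 145, 138 and 130.2 CPM at day 0, 95, 96.5, 92.5, 87.9 and 84.4 CPM at day 1, and 209.9, 194, 238, 265 and 212 CPM at day 12. The day 12 libraries were the more scattered and all above the rest. The log2 fold changes were −0.67 (SE 0.0999) and 0.66 (SE 0.0970) for Sfrp2 and −0.59 (SE 0.0585) and 0.70 (SE 0.0579) for Itih5.

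Ch25h encodes cholesterol 25-hydroxylase, an enzyme of the endoplasmic reticulum known as an interferon-induced gene, and lies at chr19:34473778-34475164. It is uncertain because 11.5% of its exon bases are shared with Gm26902 on the opposite strand. It had 14.2, 11.8, 11.5, 13.5 and 14.6 CPM at day 0, 8.39, 7.97, 8.78, 8.36 and 7.98 CPM at day 1, and 37.6, 35.7, 39.1, 35.2 and 36.9 CPM at day 12. Day 12 stood far above both other groups, at 2.81-fold day 0, while day 1 was 0.633-fold. Its log2 fold changes were −0.66 (SE 0.0602) and 1.49 (SE 0.0560).

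Arhgap18 lies at chr10:26753421-26918648. It had 6.32, 7.07, 6.16, 7.06 and 6.19 CPM at day 0, 2.71, 3.28, 4.19, 2.86 and 3.20 CPM at day 1, and 9.77, 9.80, 12.7, 10.8 and 11 CPM at day 12. The groups were apart, with log2 fold changes of −1.01 (SE 0.0982) and 0.72 (SE 0.0904). Mogat2 encodes a monoacylglycerol acyltransferase, which makes diacylglycerol for triglyceride synthesis, and lies at chr7:99219084-99238619. Its day 0 libraries held 5.31 to 7.59 CPM, those of day 1 3.36 to 4.44, and those of day 12 8.82 to 10.3, without overlap. On the log2 scale it changed by −0.75 (SE 0.0920) and 0.60 (SE 0.0865). Its deposited difference at day 12, 0.502, was the closest to the limit, and it fell under the limit in 4 of the 15 fits that left out a library.

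All 17 genes were apart from day 0 in both comparisons. Among the 12650 genes that could be chosen, 2.4% had groups without overlap at both days, higher then lower, and 2.25% the other way. In edgeR's quasi-likelihood test of the counts, a call needed a fold change over 1.5 and an adjusted p (Benjamini-Hochberg) under 0.05. Calls were made for 7.71% of 14293 genes as higher and 13.4% as lower at day 1, and for 13% as higher and 16.2% as lower at day 12. The split at day 12 depended on the scaling: 1852 genes were called higher and 2320 lower with TMM, against 2982 and 1668 when libraries were scaled by total counts only. Opposite calls at both days were made for 18 genes higher then lower (0.126%) and 56 lower then higher (0.392%), which include all 17. Under total counts only these numbers were 13 and 70, and 11 of the 17 had both calls. Of the 8 genes higher then lower, 5 then missed the fold limit at day 12, with log2 fold changes of −0.48 for Hmox1, −0.58 for Slc22a4, −0.56 for Pm20d2, −0.42 for Alpl and −0.47 for Atp5sl, and Itih5 missed it at day 1, at −0.57. Nothing is read from these shares, because the rule used the same differences. Opposite signs of any size were found in 3053 of the 12650 genes, or 24.1%.

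**Figure D2:**
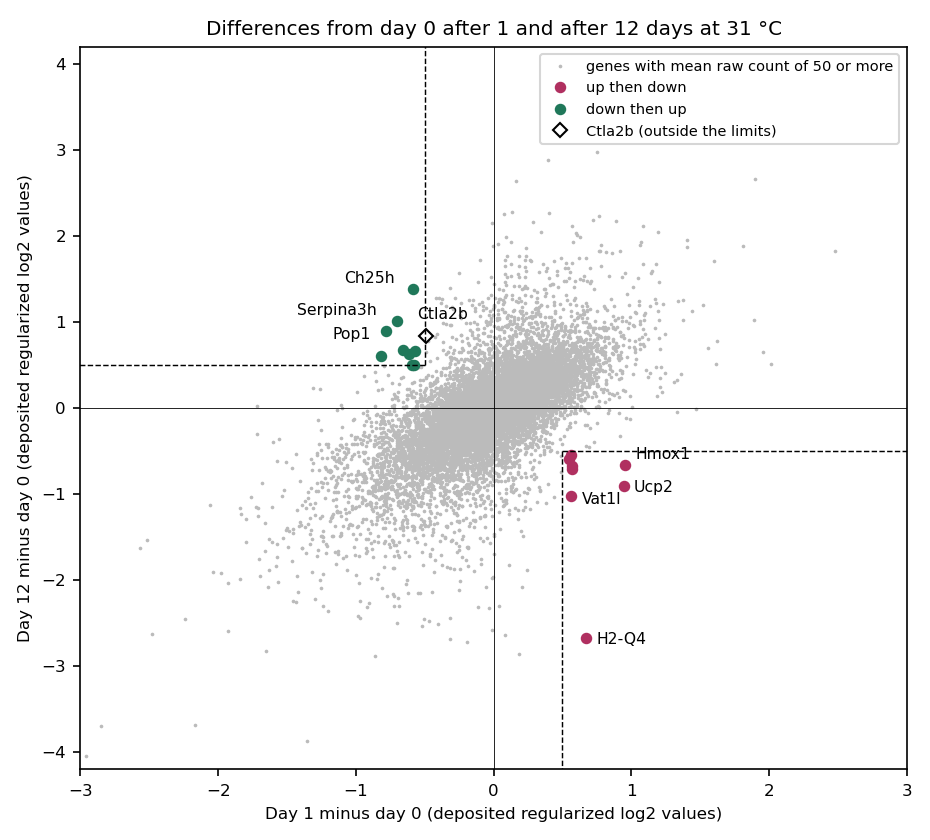
The difference of day 12 from day 0 is plotted against that of day 1 from day 0, in deposited regularized log2 values, for genes with a mean raw count of at least 50 (2 genes lie outside the axes). Dashed lines mark the limits of 0.5: the 8 red points lie in the lower right corner, with H2-Q4 far below the rest at −2.67, the 9 green points in the upper left, and Ctla2b just outside at −0.49.

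Several genes lay close to the limit of 0.5 on either side. Just inside it were Vat1l (0.57 and −1.02 at day 1 and day 12), Alpl (0.56 and −0.55) and Atp5sl (0.54 and −0.59), and on the other side Itih5 (−0.57 and 0.67), Ncapg2 (−0.58 and 0.50) and Mogat2 (−0.59 and 0.50). Just outside were Wnt11 (0.49 and −0.75), Ankrd44 (0.49 and −0.56) and Htra4 (0.46 and −0.51), and Ctla2b (−0.49 and 0.84), Atp8b4 (−0.49 and 0.66) and Kif26b (−0.79 and 0.49). Ctla2b, related to the propeptides of cathepsins, had been put forward as a marker of the set but missed the rule.

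In Ctla2b, at chr13:60895350-60897447, 68.7% of the exon bases are shared with other genes on the same strand, so its counts are uncertain. It had 1.30, 1.25, 0.934, 1.35 and 1.07 CPM at day 0, 0.525, 0.403, 0.598, 0.614 and 0.588 CPM at day 1, and 2.21, 2.41, 3.25, 5.15 and 2.95 CPM at day 12. Its groups did not overlap either, although 1 day 12 library was well above the others. The log2 fold changes from the counts, −1.11 (SE 0.215) and 1.43 (SE 0.186), were larger than those of most of the 17, while the deposited differences were 0.446 and 0.591 of them.

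This gap between the deposited and the counted difference followed the depth of the gene. The regularized transformation draws the values of genes with few counts toward their mean. Hmox1, with a mean raw count of 60022, kept 0.977 of its day 1 change, and Serpina3h, with 192, kept 0.488. Of the 74 genes called in opposite directions from the counts, 18 were under the count minimum of the rule, and 39 more met it but had a deposited difference under 0.5. The median of the mean raw count was 95.2 over the 74 and 1187 over the 17, so the rule took the better counted of them.

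**Figure D3:**
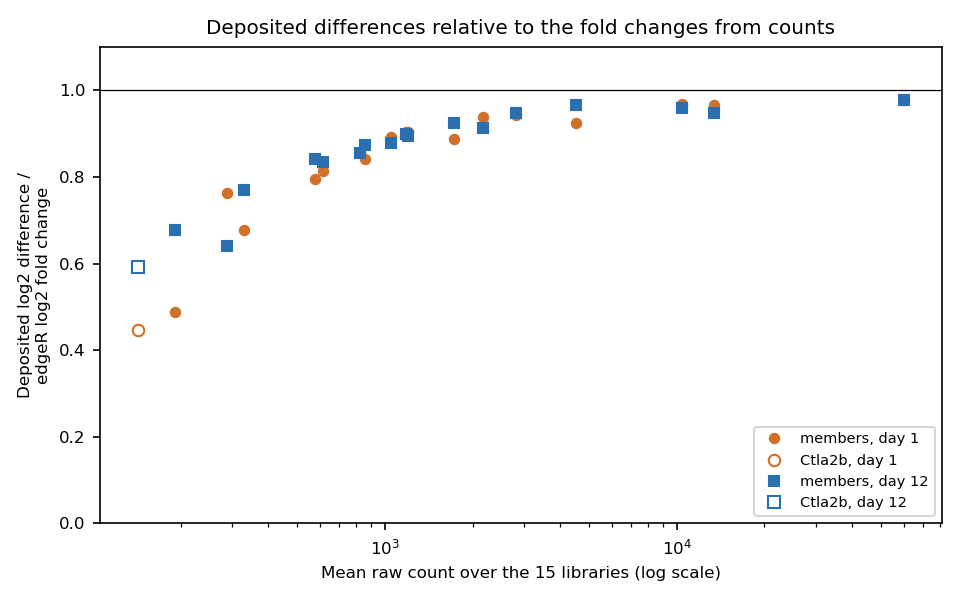
The deposited log2 difference divided by the edgeR log2 fold change is plotted against the mean raw count (log axis) for the 17 genes (filled) and Ctla2b (open), at day 1 (circles) and day 12 (squares). A ratio of 1 means no shrinkage; the ratio is 0.977 for Hmox1 and 0.446 for Ctla2b at day 1.

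The spread within groups and the exon length, which the rule did not use, differed in value from those of the 12650 genes. The SD of log2 CPM within groups had a median of 0.142 over the 17, from 0.0822 in Hmox1 to 0.245 in Vat1l, against 0.0748 over all. The median exon length was 3020 bases against 4534. In CPM per kilobase of exon at day 0, the 17 were spread over the range of the genes tested by edgeR, at a median percentile of 45.4. H2-Q4 was at 94.1, Sfrp2 at 86.4, Itih5 at 82.5 and Kntc1 lowest at 17.4. This level is not independent of the rule, which had a count minimum. The 17 genes lay on 12 chromosomes. Ucp2 and Mogat2, 1.25 Mb apart on chromosome 7, had opposite patterns.

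The neighbours of the genes on the chromosome gave values that the rule did not use. Of the 34 nearest tested genes on either side, none was called in opposite directions by edgeR or by DESeq2, and 4 had opposite signs with both unadjusted p under 0.05. As such calls were made for only 0.126% and 0.392% of all genes, nothing is read from this count of 0. The 4 are not read either, as 1149 of all 14293 genes had opposite calls without the fold limit, at an adjusted p under 0.05. At day 1, none was called higher by either tool (8 at an unadjusted p under 0.05), and 10 were called lower by edgeR. At day 12, 5 were called higher and 15 lower, against 6 and 7 under total counts only. Over all genes, edgeR called 7.71% higher and 13.4% lower at day 1, and 13% and 16.2% at day 12. Ucp3, 6.91 kb from Ucp2, was lower at both days, with log2 fold changes of −0.76 (SE 0.191, adjusted p = 0.00105) and −2.16 (SE 0.213, adjusted p = 1.83e-09). Dgat2, 36.4 kb from Mogat2, had −0.06 (SE 0.0335, adjusted p = 0.141) at day 1 and was lower at day 12, at −0.73 (SE 0.0338, adjusted p = 1.29e-15), a call that was lost under total counts only (−0.53). Serpina3g, 5.97 kb from Serpina3h, was lower at day 1, at −0.62 (SE 0.0885, adjusted p = 1.06e-06), and its value of 0.39 (SE 0.0846) at day 12 was under the fold limit.

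The families of the 17 genes, put together by function and not by how they moved, were then compared, as log2 fold changes against day 0 from edgeR. They held 102 other tested genes besides Ctla2b. None of these 102 was called in opposite directions by edgeR or by DESeq2, and 10 had opposite signs with both unadjusted p under 0.05. Of the 10, 4 were MHC class I genes, 2 Serpina3 genes, 2 condensin subunits, 1 an NRF2 target and 1 a carnitine transporter gene. Against the same shares over all genes, 0.126% and 0.392%, a count of 0 in 102 says nothing about the families. Without the fold limit, 1149 of all 14293 genes had opposite calls at an adjusted p under 0.05, so nothing is read from the 10 either. Without that limit, 5049 of all genes were higher and 5177 lower at day 1, and 5608 and 5342 at day 12. Counts at an unadjusted p under 0.05 are therefore given only as a description. Of those named below, Ftl1 (34.6%), H2-T22 (29.4%), H2-T10 (27.05%), Ncapg (13.4%) and Mogat1 (12.8%) share over 10% of their exon bases with other genes and are uncertain. Over all genes tested, the median log2 fold change was −0.01 at day 1 and 0.01 at day 12. Beside the family and list counts below, 7.71% of all genes were called higher and 13.4% lower at day 1. At day 12 these shares were 13% and 16.2%.

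Around Hmox1, the other NRF2 targets were higher at day 1 in 7 of 7 cases and lower at day 12 in none by either edgeR or DESeq2 (1 at an unadjusted p under 0.05). Nqo1, a quinone reductase, had log2 fold changes of 1.51 (SE 0.0493, adjusted p = 3.85e-18) at day 1 and 0.00 (SE 0.0487, adjusted p = 0.971) at day 12. Gclc, the catalytic subunit of glutathione synthesis, had 1.04 (SE 0.0358, adjusted p = 9.08e-18) and 0.02 (SE 0.0360, adjusted p = 0.64). Gclm had 0.95 (SE 0.0456) and −0.33 (SE 0.0459, adjusted p = 6.07e-07), the latter under the fold limit and −0.14 under total counts only. Slc7a11, the cystine importer, was higher at both days, at 1.17 (SE 0.0852) and 0.77 (SE 0.0856). In heme breakdown, the biliverdin reductases Blvra and Blvrb were higher at day 1, at 0.60 and 0.93, and Blvra also at day 12, at 0.79. The ferritin chains Fth1 and Ftl1 were lower at day 12, at −0.77 and −0.68, calls that were lost when the libraries were scaled by total counts only, and Ftl1 shares 34.6% of its exon bases with other genes.

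Around H2-Q4, 14 of 16 other genes of MHC class I and its peptide loading were lower at day 12, and none was higher at either day by edgeR or DESeq2 (4 at day 1 with an unadjusted p under 0.05). At day 1, 2 were lower, H2-T22 and H2-T24. The class I heavy chain H2-K1 had 0.21 (SE 0.0381, adjusted p = 2.47e-05) at day 1, under the fold limit, and −2.13 (SE 0.0399, adjusted p = 4.17e-23) at day 12. H2-D1 had 0.25 (SE 0.0377) and −1.93 (SE 0.0391), and the light chain B2m −0.06 (SE 0.0522, adjusted p = 0.319) and −2.12 (SE 0.0545). H2-T10 had 0.45 (SE 0.107), under the fold limit, and was lower at day 12, at −0.76 (SE 0.113), a call lost under total counts only (−0.57). The 16 genes had medians of −0.12 (day 1) and −1.80 (day 12).

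Among the relatives of Ucp2, Ucp1, the uncoupling protein of brown fat, had at most 4 counts in a library and was not tested. Slc25a30, another carrier of this branch, was lower at day 1, at −0.99 (SE 0.0635, adjusted p = 1.02e-12). Of 14 other assembly factors of complex I, the pathway of Atp5sl, 2 were higher and 1 lower at each day. Foxred1 was higher at both, at 0.88 and 0.60, and Timmdc1 lower at both, at −0.70 and −0.79. Pm20d1, a relative of Pm20d2 that makes N-acyl amino acids in fat, had −0.16 at day 1 and was lower at day 12, at −2.25 (SE 0.0701, adjusted p = 5.34e-19). Among genes of phosphate handling beside Alpl, the transporter Slc20a2 was higher at both days, at 1.07 and 1.17. The neighbouring carnitine transporter genes Slc22a5 and Slc22a21 passed the fold limit at neither day by edgeR or DESeq2, though both had an unadjusted p under 0.05 at each day. Slc22a5 had −0.11 and −0.50. Slc22a21 had 0.46 and −0.18, the latter turning to 0.01 under total counts only.

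Among the families of the other direction, of 9 proteins of RNase P and RNase MRP besides Pop1, none was called at either day by edgeR or DESeq2, while 7 at day 1 and 6 at day 12 had an unadjusted p under 0.05. Of 7 other condensin subunits, 4 were higher at day 12, Smc2 at 1.26 (SE 0.0609), Ncapg at 1.48 (SE 0.115), Ncapd2 at 1.14 and Ncaph at 1.67. None of the 7 was called at day 1 by edgeR or DESeq2 (5 at an unadjusted p under 0.05), and Ncaph had a value of 0.58 (SE 0.0821, adjusted p = 1.07e-06) that day, which passed the fold limit under total counts only (0.60). Smc4 had −0.48 (SE 0.0414) at day 1 and 0.23 (SE 0.0407) at day 12, both under the fold limit. In the RZZ complex and its partner Spdl1, Zwilch was higher at day 12, at 1.42 (SE 0.0827, adjusted p = 9.44e-14), as was Spdl1, at 1.12 (SE 0.132). Zw10 had −0.24 and −0.16, the latter turning to 0.03 under total counts only. In a list of 44 cell cycle genes, 29 were higher and 4 lower at day 12, and 5 were higher and 7 lower at day 1. The E2F family members E2f2 (−1.26 at day 1, 1.06 at day 12) and E2f7 (−0.69 and 1.99), named after their values were seen, were its 2 opposite calls, both from levels under 1 CPM at day 0.

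The Serpina3 cluster was mixed. Serpina3f was higher at both days, at 0.67 (SE 0.0618) and 1.66 (SE 0.0605), Serpina3i had 0.57 at day 1, under the fold limit (0.59 and over it under total counts only), and was higher at day 12, at 1.01, and the abundant Serpina3n had −0.09 at day 1 and was lower at day 12, at −0.87 (SE 0.0306, adjusted p = 5.9e-18). Among secreted frizzled-related proteins, Sfrp4 was lower at both days, at −0.82 (SE 0.101) and −3.28 (SE 0.122), with Sfrp1 at −0.14 and −0.28. Around Itih5, Itih2 had 0.18 at day 1 and was higher at day 12, at 0.69 (SE 0.0391, adjusted p = 5.84e-14). Tnfaip6, whose product transfers the heavy chains to hyaluronan, was lower at day 1, at −0.80 (SE 0.0737, adjusted p = 7.11e-10). Mogat1, the sister gene of Mogat2, had 0.07 (SE 0.121, adjusted p = 0.606) at day 1 and was lower at day 12, at −2.19 (SE 0.140, adjusted p = 6.29e-13). Dgat1, which carries out the next step, was higher at both, at 0.61 and 0.71. Among other oxysterol enzymes, Cyp27a1, which makes another hydroxycholesterol, was lower at day 12, at −1.60 (SE 0.0985), and Cyp7b1, which acts on the product of Ch25h, had −0.48 and −0.56, under the fold limit.

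How far each gene stood from the limit was looked at by leaving out each library in turn. Of the 17, 15 kept opposite differences of at least 0.5 in all 15 fits, Ucp2 with the widest margin, its smaller difference lying between 0.84 and 0.93. Ncapg2 fell under the limit without day 0 replicate 4 or 5 or without day 12 replicate 1, 3 or 5, to 0.48 at the lowest, and Mogat2 without day 0 replicate 2 or 4 or without day 12 replicate 3 or 4, to 0.46. The library numbers in the labels fall into an earlier series of 11 and a later one of 4. Within the 11 libraries, 16 of the 17 met the rule, and Ncapg2 had a smaller difference of 0.46. Ctla2b met the rule in the 11 libraries, at 0.54, and in 4 of the 15 fits.

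**Figure D4:**
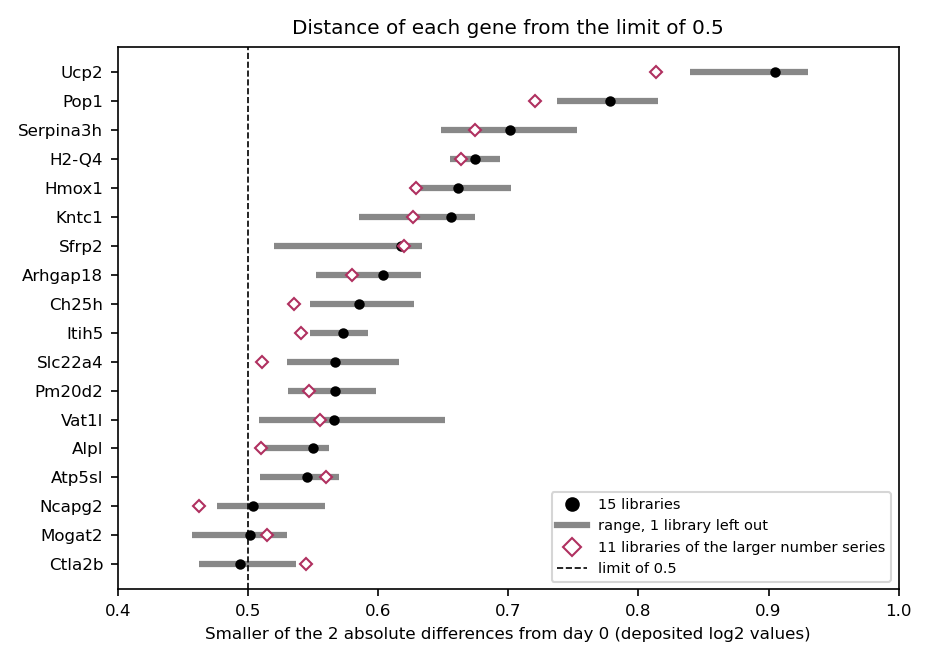
For each of the 17 genes and Ctla2b, the smaller of the absolute differences at day 1 and day 12 (deposited log2 values) is shown for the 15 libraries (black), as the range when 1 library is left out (grey) and in the 11 libraries of the larger number series (diamonds). Ranges cross the dashed limit of 0.5 for Ncapg2, Mogat2 and Ctla2b.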

How the data were processed

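The authors aligned reads to the mouse build mm10 with TopHat2 2.0.13 and Bowtie2 2.2.1 and counted them per gene with HTSeq, and the deposited counts were used here. The rule used their deposited regularized log2 values, from DESeq2. Their tables of fold changes and p-values against day 0 were not used. Strandedness and annotation release are not given in the sources used here. Genes were matched by symbol to GENCODE vM21 on GRCm38, the same build (18483 of 18804 genes, 1617 by an older symbol). Counts were filtered with filterByExpr (minimum count 10), scaled by TMM and fitted in R 4.3.3 with edgeR 4.0.16 in a single model of the 15 libraries without covariates. DESeq2 1.42.0 was an alternative. The steps were tested on simulated data. Deviations of same-numbered libraries were weakly correlated (−0.0255 to 0.0436 over 15 pairs), though 10 of 15 libraries correlated best with their own number. Whether same-numbered libraries were paired is not given in the labels. The main fit did not use the numbers as pairs, and a fit with a replicate block was an alternative. The rule named every gene it took, gave library values for the 8 per direction with the largest smaller difference, and 3 genes on either side of the limit. The genes and lists were chosen with earlier results of these data known, and the families after the 17 were known.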

Additional observations from a re-analysis of the deposited data

How the results depend on the processing

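The number of genes that met the rule depended on its limit and on the scale, and less on single libraries. With a limit of 0.4 there were 19 genes higher then lower and 24 lower then higher, and with 0.6 there were 3 and 5. On log2 CPM with TMM the numbers were 18 and 68, on log2 counts over DESeq2 size factors 18 and 69, and on log2 CPM with total counts only 12 and 85; the first 2 kept all 17 genes. Scaling by total counts only moved the median of all genes at day 12 to 0.21 and lost Hmox1, Alpl and Atp5sl, whose decrease at day 12 then fell short of the limit. A mean raw count of at least 200 lost Serpina3h. Leaving out 1 library gave 16 to 21 genes in all. The number of opposite calls was 74, between 64 and 74 with 1 library left out, 62 in the 11 libraries of the larger series, 73 with the replicate block, 83 under total counts only, and 1149 without the fold limit. In the block fit the replicate numbers served as a term; 10 of 15 libraries correlated best with their own number, and no correlation passed 0.1. Of 828 recomputed log2 fold changes of the 17 genes and Ctla2b, 809 stayed within 1 SD, 19 moved further and none changed sign. Of the 19, 12 came under total counts only, where 24 stayed, and 7 in the deposited values, where 29 stayed. Low counts limit Serpina3h and Ctla2b most.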

Other observations

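Besides the genes above, 2 genes of the gene lists were called in opposite directions by edgeR, and both were named after their values were seen. Areg, the growth factor amphiregulin, had mean levels of 0.799, 0.499 and 1.93 CPM in the 3 groups, with log2 fold changes of −0.66 (SE 0.207, adjusted p = 0.00641) and 1.27 (SE 0.186, adjusted p = 1.27e-06). Wnt11, a Wnt ligand, had 2.21, 3.65 and 0.915 CPM (days 0, 1 and 12), with 0.72 (SE 0.139, adjusted p = 5.98e-05) and −1.28 (SE 0.155, adjusted p = 6.49e-08). Both have few counts, and neither met the rule on the deposited values.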
